A study of Arabidopsis thaliana with 47 samples.

Results

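The CLE peptide genes CLE1 to CLE7, CLE40, CLE41 and CLE44 were followed in root tips of Arabidopsis thaliana. They were chosen by locus code (among them AT2G31083 for CLE5, AT2G31085 for CLE6, AT4G18510 for CLE2, AT3G24770 for CLE41, AT4G13195 for CLE44 and AT2G31082 for CLE7) and make up 10 of 36823 loci in the deposited count table. CLE5 had drawn attention through its change between mock and 5 nM RGF1 in the lines carrying a PLT2 transgene, so for every member those 2 contrasts are given as description, with no p-value. RNA-seq libraries came from dissected meristematic zones, 50 root sections a library, of seedlings grown for 6 days and then kept for 24 h in medium with mock, 0.3 nM or 5 nM RGF1, a secreted root meristem growth factor peptide. The 3 genotypes were the mutant plt2, the same mutant with the transgene gPLT2-GFP, and the same mutant with gPLT2C212S-GFP, whose name gives a cysteine to serine exchange in the PLT2 protein. All 47 libraries therefore share the plt2 mutant background, and the transgenic lines are called gPLT2 and gPLT2C212S below. Each of the 9 groups held 5 libraries, except for 6 in each transgenic line at 5 nM. The labels do not give the number of independent transgenic lines or say whether replicates came from separate cultures, so the p-values measure the spread between these libraries.

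CLE genes code for precursors from which short peptides are cut and secreted. The peptides bind leucine-rich repeat receptor kinases such as CLV1, the BAM proteins and PXY on neighbouring cells, and they set the balance between division and differentiation in meristems and in vascular tissue. In the root tip, CLE40 is known to limit the columella stem cells, and CLE41 and CLE44 give the same peptide, which holds procambial cells undifferentiated through PXY. CLE1 to CLE7 are close relatives, several of which respond to nitrogen supply in roots, and CLE5 and CLE6 are known to act on leaf shape. PLT2 is an AP2-type transcription factor that maintains the root stem cell niche, and its protein level, not measured here, is known to rise under RGF1.

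The 12 codons of the secreted peptide say which members can send the same signal, and are shown for CLE5, CLE6, CLE7, CLE2, CLE41 and CLE44. Those of CLE1, CLE3, CLE4 and CLE40 were compared in the same way and are not shown. They were read from the RefSeq TAIR10.1 assembly, 5′ to 3′ on the coding strand, and capitals mark bases that differ from CLE5.
CLE5: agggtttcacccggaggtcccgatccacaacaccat
CLE6: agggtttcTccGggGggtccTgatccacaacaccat
CLE7: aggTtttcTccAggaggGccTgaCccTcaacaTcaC
CLE2: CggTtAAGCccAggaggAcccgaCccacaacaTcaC
CLE41: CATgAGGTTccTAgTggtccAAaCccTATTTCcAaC
CLE44: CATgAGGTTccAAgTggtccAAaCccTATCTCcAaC
CLE5 and CLE6 differed at 4 of 36 bases and at 0 of the 12 encoded residues. CLE7 differed from CLE5 at 9 bases and CLE2 at 11 bases, each with 1 residue changed, and CLE41 and CLE44 differed at 22 bases and 8 residues. The 10 genes thus encode 6 different peptides: one shared by CLE1, CLE3 and CLE4, one by CLE5 and CLE6, one by CLE41 and CLE44, and one each for CLE2, CLE7 and CLE40. Over their whole coding sequences CLE5 and CLE6 were 62.6% identical, and the longest run of bases identical between them was 25.

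CLE4, CLE7, CLE5 and CLE6 lie side by side on the plus strand of chromosome 2 in that order, with 0 annotated genes between them. CLE5 spans chr2:13252076-13252914 and CLE6 spans chr2:13254152-13254859 in TAIR10.1, 1237 bases apart. Both have 1 exon. CLE44, on the minus strand of chromosome 4, overlaps the annotated gene AT4G13190, and how reads in the overlap were counted is not given in the sources used here. The windows from 250 bases before to 50 bases after the annotated starts of CLE5 and CLE6 are shown because these neighbours encode the same peptide and differed in level. Capitals mark the longest run of bases common to both windows.
CLE5, chr2:13251826-13252125, plus strand: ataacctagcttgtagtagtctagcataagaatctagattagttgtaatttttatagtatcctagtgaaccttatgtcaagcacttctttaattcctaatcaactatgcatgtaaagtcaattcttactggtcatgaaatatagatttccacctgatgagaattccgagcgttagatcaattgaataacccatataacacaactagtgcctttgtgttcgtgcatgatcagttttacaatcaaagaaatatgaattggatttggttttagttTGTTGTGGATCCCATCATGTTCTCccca
CLE6, chr2:13253902-13254201, plus strand: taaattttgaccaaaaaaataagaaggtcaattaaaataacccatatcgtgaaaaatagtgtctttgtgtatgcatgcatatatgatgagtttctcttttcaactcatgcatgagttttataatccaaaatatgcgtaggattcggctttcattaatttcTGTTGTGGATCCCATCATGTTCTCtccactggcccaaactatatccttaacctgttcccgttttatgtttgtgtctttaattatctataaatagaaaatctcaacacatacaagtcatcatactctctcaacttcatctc
The 2 windows were 50.1% identical and shared a run of 24 bases, which begins 90 bases before the annotated start of CLE6 and 22 bases after that of CLE5. The W-box core TTGAC, searched on both strands, occurred 2 times in each window. It was also in 50.479% of 27443 promoter windows of the same length, and in 6 of the 10 members. The AINTEGUMENTA-type motif, searched on both strands, was in 0 of the 10 windows and in 0.299% of all windows, and the G-box CACGTG was in 0 of the 10 and in 7.678% of all.

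Libraries held 7739807 to 10332541 counts, of which 46.3% to 72.4% fell on mitochondrial loci, and 2652354 to 5116600 counts lay outside 14 ribosomal RNA and organelle loci. Levels are CPM, those remaining counts scaled to a common library size after TMM normalisation, and 3 counts in a library amount to 0.585 to 1.13 CPM. RNA of PLT2 itself was measured at 3.48 to 12.01 CPM in the 15 plt2 libraries, against 26.7 to 64.5 CPM in gPLT2 and 44.98 to 87.4 CPM in gPLT2C212S. From mock to 0.3 nM and 5 nM, its means were 39.5, 34.4 and 54.6 CPM in gPLT2. In gPLT2C212S they were 63.3, 50.9 and 76.2 CPM. Markers of the meristem and of other cells moved between groups. Meristem and cell cycle markers (CYCB1;1, SHR, SCR and CDKB2;1) summed at 0.3 nM to 128 to 175 CPM in plt2. They summed to 177 to 197 CPM in gPLT2 and 193 to 236 CPM in gPLT2C212S at that dose. Under mock they lay between 136 and 232 CPM in the 3 genotypes. At 5 nM they overlapped, at 182 to 206 CPM in plt2, 189 to 236 CPM in gPLT2 and 183 to 239 CPM in gPLT2C212S. These markers did not move together. At 0.3 nM, CYCB1;1 (0.71, adjusted p = 0.00942) and CDKB2;1 (0.67, adjusted p = 0.00179) were higher in gPLT2C212S than in gPLT2. SHR was lower (-0.43, adjusted p = 0.0493, edgeR) and SCR was not called (0.01, adjusted p = 0.972). Root cap markers (SMB, BRN1 and BRN2, all 3 detected in every group) summed to 295 to 413 CPM in plt2, 144 to 229 CPM in gPLT2 and 68.8 to 111 CPM in gPLT2C212S at 0.3 nM. Xylem markers (VND7, IRX3 and XCP1, all 3 detected in every group) summed at that dose to 2.62 to 9.09, 11.7 to 21.8 and 13.9 to 27.5 CPM, while under mock they lay between 4.29 and 10.7 CPM in the 3 genotypes. Green tissue markers (RBCS1A, CAB3 and CAB1) summed at 0.3 nM to 0.325 to 6.27 CPM in plt2, 7.80 to 11.1 CPM in gPLT2 and 12.7 to 25.4 CPM in gPLT2C212S, and at 5 nM to 2.21 to 3.82, 12.8 to 18.4 and 14.7 to 24.5 CPM. RBCS1A was at 0 in gPLT2 under mock. Endodermis markers (CASP1, CASP2 and MYB36) summed at 0.3 nM to 1.83 to 8.12, 3.72 to 7.92 and 10.08 to 15.3 CPM in the same order, with CASP1 and CASP2 at 0 in gPLT2C212S under mock. Root hair markers (COBL9, EXPA7 and RHD6) summed to 17.6 to 38.6, 13.5 to 20.7 and 9.92 to 13.4 CPM, with EXPA7 at 0 in gPLT2 under mock. Phloem markers (APL, SUC2 and CVP2) summed to between 6.88 and 18.7 CPM over all groups. At 5 nM they summed to 6.88 to 13.8 CPM in plt2, 8.27 to 17.5 CPM in gPLT2 and 15.2 to 18.1 CPM in gPLT2C212S. SUC2 was then higher in gPLT2C212S than in plt2 (log2 difference 5.08, SE 0.61, adjusted p = 1.05e-07, edgeR). APL (0.27, adjusted p = 0.428) and CVP2 (-0.17, adjusted p = 0.672) were not called in that comparison. Lateral root primordium markers summed to at most 2.103 CPM, and LBD29 and GATA23 were at 0 in plt2 at both doses and in gPLT2 at 5 nM. LBD29 was also at 0 in gPLT2 under mock and in gPLT2C212S at 5 nM, and LBD16 and GATA23 in gPLT2C212S under mock.

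CLE5 was near zero in plt2 at every treatment and in all 3 mock groups, and it was at its highest in both transgenic lines at 0.3 nM RGF1. The 5 gPLT2 libraries at 0.3 nM gave 40.7, 67.7, 55.4, 30.3 and 40.9 CPM, and the 5 gPLT2C212S libraries gave 57.1, 63.7, 78.4, 68.2 and 50.8 CPM. No plt2 or mock library passed 2.21 CPM, so the groups were far apart. In plt2 the means were 0.503 ± 0.486 CPM under mock, 0.194 ± 0.180 CPM at 0.3 nM and 0.208 ± 0.232 CPM at 5 nM (SD, n = 5 each), at or below the level of 3 counts. In bulk tissue, fewer cells of a type and less RNA per cell cannot be told apart. Markers of the meristem, root cap, xylem, phloem, green tissue, endodermis and root hairs moved. Their part in this and the following results was not tested.

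Between mock and 0.3 nM, CLE5 rose in gPLT2 by 6.03 on the log2 scale (SE 0.33, edgeR quasi-likelihood test, Benjamini-Hochberg adjusted p = 1.82e-11), with means of 0.734 ± 0.646 CPM under mock and 47.01 ± 14.6 CPM at the low dose (SD, n = 5 each). The rise in gPLT2C212S was 5.87 (SE 0.24, adjusted p = 9.3e-13, edgeR), with means of 1.07 ± 0.721 and 63.7 ± 10.6 CPM. These tests share their mock libraries with the contrasts through which CLE5 was noticed. Against plt2 at the same dose, which uses none of those libraries, gPLT2 held 886 counts of CLE5 and plt2 held 3, a depth-corrected ratio of 252 with an exact counting interval of 86.0 to 1225 (95%). The ratio for gPLT2C212S was 346, from 1348 counts against 3, with an interval of 118 to 1681. Both differences passed the edgeR test, with adjusted p = 5.11e-12 for gPLT2 and 3.56e-14 for gPLT2C212S. The change from mock to 0.3 nM differed between each transgenic line and plt2 in an interaction test (adjusted p = 0.000598 for gPLT2 and 4.2e-05 for gPLT2C212S, edgeR), whose fitted sizes depend on the few plt2 counts. The interaction test again shares the transgenic mock libraries with the contrasts through which CLE5 was noticed. CLE5 passed the filter there through the transgenic libraries at 0.3 nM.

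At 5 nM, CLE5 was lower than at 0.3 nM in both transgenic lines. The 6 gPLT2 libraries at 5 nM had a lowest value of 27.0, a median of 34.3 and a highest of 37.5 CPM, overlapping the 0.3 nM libraries, and the log2 fold change from 0.3 to 5 nM was -0.54 (SE 0.16, adjusted p = 0.0193, edgeR). This call was lost without gPLT2 0.3 nM replicate 2 (-0.38, adjusted p = 0.0924) or replicate 3 (-0.48, adjusted p = 0.0571), and with scaling to total counts (-0.49, adjusted p = 0.109). The 6 gPLT2C212S libraries lay between 23.7 and 33.4 CPM, with a median of 28.6 CPM, all below the 5 libraries at 0.3 nM. There the log2 fold change was -1.12 (SE 0.12, adjusted p = 3.25e-06, edgeR). In order of level, the groups were gPLT2C212S at 0.3 nM, gPLT2 at 0.3 nM, gPLT2 at 5 nM and gPLT2C212S at 5 nM, followed by gPLT2C212S mock, gPLT2 mock and the 3 plt2 groups. Neighbours among these last 5 groups overlapped. Against plt2 at 5 nM, where plt2 held 4 counts, gPLT2 held 809 and gPLT2C212S held 550 (adjusted p = 8.27e-13 and 1.42e-15, edgeR), in libraries shared with the contrasts that drew attention to the gene.

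CLE5 passed no test between the 2 transgenic lines. At 0.3 nM the log2 difference of gPLT2C212S from gPLT2 was 0.43 (SE 0.17, adjusted p = 0.128, edgeR). It passed the threshold without gPLT2 0.3 nM replicate 2, the highest library of that group (log2 difference 0.59, adjusted p = 0.0328), and without the filter on low counts (0.0193). At 5 nM the difference was -0.14 (SE 0.12, adjusted p = 0.571). Their change from mock to 0.3 nM differed by -0.16 (SE 0.58, adjusted p = 0.924).

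**Figure D1:**
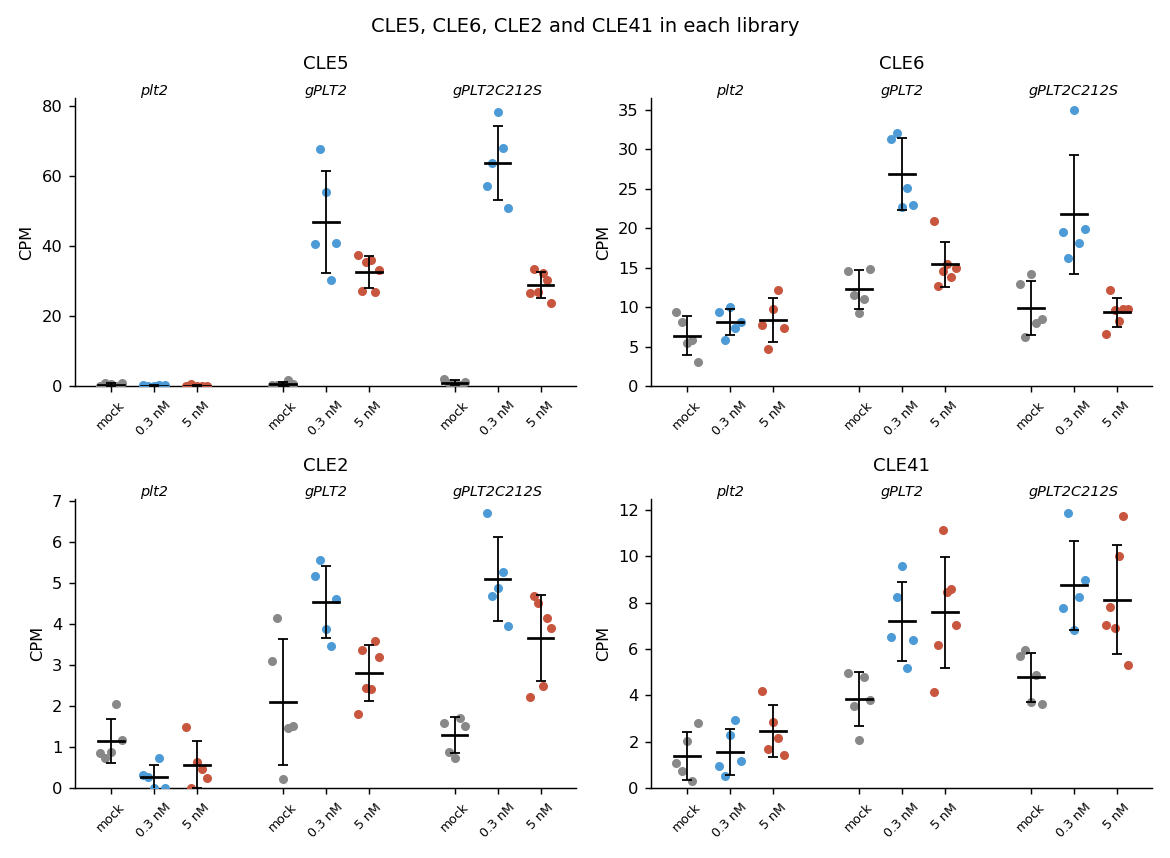
CPM of CLE5, CLE6, CLE2 and CLE41 in each library (points), by genotype and RGF1 treatment, with the group mean (bar) and SD (whisker). CLE5 lies at or below 2.21 CPM in all plt2 and mock libraries and between 23.7 and 78.4 CPM in the transgenic lines under RGF1.

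CLE6, which encodes the same peptide as CLE5 and lies next to it, was present in every group and changed far less. Its libraries gave 9.41, 5.89, 10.06, 7.33 and 8.16 CPM in plt2 at 0.3 nM, 31.3, 32.1, 22.8, 25.1 and 23.0 CPM in gPLT2, and 19.6, 16.2, 34.9, 18.1 and 19.9 CPM in gPLT2C212S. No transgenic library overlapped plt2. Against plt2 at this dose the log2 difference was 1.71 for gPLT2 (SE 0.19, adjusted p = 3.39e-07) and 1.38 for gPLT2C212S (SE 0.22, adjusted p = 3.08e-05, edgeR).

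From mock to 0.3 nM, CLE6 rose from 12.3 ± 2.42 to 26.9 ± 4.52 CPM in gPLT2 (SD, n = 5; log2 fold change 1.13, SE 0.17, adjusted p = 8.44e-05, edgeR). In gPLT2C212S it rose from 9.98 ± 3.42 to 21.8 ± 7.50 CPM (log2 fold change 1.11, SE 0.23, adjusted p = 0.00126). With the mitochondrial share of each library as a covariate the second value was 0.73, with adjusted p = 0.0515. In plt2 the means were 6.42 ± 2.48, 8.17 ± 1.66 and 8.38 ± 2.77 CPM from mock to 5 nM, and the dose comparisons gave adjusted p = 0.816 for 0.3 nM, 0.421 for 5 nM and 0.93 between the doses. The difference of the low-dose change from that of plt2 did not pass for gPLT2 (0.77, SE 0.32, adjusted p = 0.148) or gPLT2C212S (0.73, SE 0.38, adjusted p = 0.233). In the second line it did with scaling to total counts (1.31, adjusted p = 0.0259), a scaling that moved the median of all genes in that comparison by 0.53.

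CLE6 was lower again at 5 nM. It fell by 0.82 on the log2 scale from 0.3 to 5 nM in gPLT2 (SE 0.15, adjusted p = 0.000479, edgeR) and fell by 1.20 in gPLT2C212S (SE 0.20, adjusted p = 0.000305). The latter call was lost with the mitochondrial covariate (-0.72, adjusted p = 0.0608). In gPLT2C212S the mitochondrial share was 57.1% to 68.6% under mock, 46.3% to 65.2% at 0.3 nM and 61.6% to 72.4% at 5 nM. The covariate therefore partly follows the treatment. At 5 nM the means were 15.4 ± 2.87 CPM in gPLT2 and 9.40 ± 1.83 CPM in gPLT2C212S (SD, n = 6 each), beside 8.38 ± 2.77 CPM in plt2. gPLT2 was above plt2 by 0.83 (SE 0.20, adjusted p = 0.00272), and gPLT2C212S differed from plt2 by 0.15 (SE 0.23, adjusted p = 0.619).

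The direct comparison of the transgenic lines at 5 nM gave -0.67 for gPLT2C212S against gPLT2 (SE 0.17, adjusted p = 0.022, edgeR), with no overlap between 6.67 to 12.2 CPM and 12.7 to 20.9 CPM. It missed the threshold without gPLT2 5 nM replicate 1 (-0.56, adjusted p = 0.068) and without gPLT2C212S 5 nM replicate 1 (-0.60, adjusted p = 0.0559). It also did so, with no smaller a difference, in the joint fit of 9 groups (-0.69, adjusted p = 0.0504) and with the mitochondrial covariate (-0.68, adjusted p = 0.0592). At 0.3 nM the difference was -0.30 (SE 0.18, adjusted p = 0.341), and it passed without gPLT2C212S 0.3 nM replicate 3 (-0.55, adjusted p = 0.0379). Under mock, CLE6 did not pass in any pair of genotypes, the largest difference being 0.95 for gPLT2 over plt2 (SE 0.26, adjusted p = 0.0693). DESeq2 called that difference (adjusted p = 0.0195), as did the single fit of 9 groups (0.0123) and the fit without the filter on low counts (0.0106).

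CLE2 was a minor transcript with its highest group means in the transgenic lines at 0.3 nM. At 0.3 nM the plt2 libraries held 1, 1, 0, 2 and 0 counts, and the transgenic libraries held 12 to 25 counts each. In CPM these were 0.263 ± 0.301 in plt2, 4.54 ± 0.873 in gPLT2 and 5.10 ± 1.02 in gPLT2C212S (SD, n = 5 each). The log2 difference from plt2 was 4.01 for gPLT2 (SE 0.53, adjusted p = 4.67e-06) and 4.14 for gPLT2C212S (SE 0.51, adjusted p = 1.21e-06, edgeR).

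CLE2 rose from 1.29 ± 0.439 CPM under mock in gPLT2C212S (log2 fold change to 0.3 nM 1.95, SE 0.34, adjusted p = 0.000244). In gPLT2 the mock libraries spread from 0.232 to 4.15 CPM and overlapped those at 0.3 nM, and the log2 fold change of 1.15 missed the threshold (SE 0.42, adjusted p = 0.0634). It passed with DESeq2 (0.0491), without the low-count filter (0.0474), with total counts (0.0421), in the single fit (0.0349) and without gPLT2 mock replicate 2 (0.0264). The low-dose change differed from that in plt2 by 3.94 for gPLT2C212S (SE 0.72, adjusted p = 0.000814) and by 3.15 for gPLT2 (SE 0.87, adjusted p = 0.0295, edgeR). In plt2 itself CLE2 went from 22 counts under mock (1.14 ± 0.539 CPM) to 4 at 0.3 nM, with no overlap between the libraries, a depth-corrected ratio of 0.223 (exact counting interval 0.0557 to 0.655). The filter removed it there, and without the filter that change did not pass (-2.01, SE 0.92, adjusted p = 0.579). The interactions thus hold a lower plt2 level as well as the rises of 1.95 and 1.15. The call for gPLT2 was lost, at 2.83 to 3.24, without any one of 6 libraries: plt2 mock replicate 4 (adjusted p = 0.0584), plt2 0.3 nM replicate 1 (0.0515), 3 (0.0514) or 5 (0.066), gPLT2 mock replicate 4 (0.0502) and gPLT2 0.3 nM replicate 1 (0.052). From 0.3 to 5 nM the change was -0.71 in gPLT2 (SE 0.28, adjusted p = 0.0647), beside -0.44 in the other line (SE 0.27, adjusted p = 0.329). The first passed without gPLT2 0.3 nM replicate 4 (0.0474), and the second with total counts (-0.84, adjusted p = 0.0307).

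CLE41, a source of the procambial peptide, differed between plt2 and the transgenic lines at 0.3 nM by a smaller factor than CLE5 and CLE2 and a larger one than CLE6, and passed no test between the doses. At 0.3 nM its libraries gave 0.941, 0.536, 2.27, 2.93 and 1.17 CPM in plt2, 6.53, 8.23, 9.58, 5.20 and 6.39 CPM in gPLT2, and 7.78, 11.9, 6.83, 8.26 and 8.98 CPM in gPLT2C212S. All 10 transgenic libraries stood above the plt2 ones. The log2 difference from plt2 was 2.22 for gPLT2 (SE 0.38, adjusted p = 0.000103) and 2.46 for gPLT2C212S (SE 0.36, adjusted p = 9.67e-06, edgeR). At 5 nM it was 1.60 (SE 0.31, adjusted p = 0.000355) and 1.72 (SE 0.31, adjusted p = 4.34e-05).

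Under mock, CLE41 was already higher in gPLT2C212S than in plt2, at 4.77 ± 1.07 against 1.39 ± 1.02 CPM (SD, n = 5 each; log2 difference 1.74, SE 0.41, adjusted p = 0.00666). With the mitochondrial covariate the difference was 1.58, of similar size, with adjusted p = 0.106. For gPLT2 under mock the difference was 1.42 (SE 0.44, adjusted p = 0.0962), called by DESeq2 (0.0468), in the single fit (0.0177) and without plt2 mock replicate 5 (0.0297). From mock to 0.3 nM, CLE41 rose by 0.84 in gPLT2C212S (SE 0.24, adjusted p = 0.0161), and in gPLT2 the rise was 0.92 (SE 0.29, adjusted p = 0.0332). The call in gPLT2 was lost, at 0.74 to 0.96, without any one of 6 libraries: mock replicate 2 (0.0714), 3 (0.0741) or 5 (0.0562), and 0.3 nM replicate 1 (0.0508), 2 (0.0707) or 3 (0.0857). The low-dose change was not separated from that in plt2 (0.80, SE 0.63, adjusted p = 0.486 for gPLT2, and 0.71, SE 0.59, adjusted p = 0.491 for gPLT2C212S). Between 0.3 and 5 nM the log2 fold change was 0.06 in gPLT2 (SE 0.24, adjusted p = 0.881), while gPLT2C212S gave -0.08 (SE 0.22, adjusted p = 0.872).

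CLE44, which encodes the same peptide as CLE41, was close to the limit of detection, with 0 to 13 counts a library. Its highest group mean was 2.49 ± 1.44 CPM in gPLT2C212S at 5 nM (SD, n = 6), where 1 library had 0 counts. In plt2 at 5 nM all 5 libraries together held 3 counts, against 26 in gPLT2 and 50 in gPLT2C212S, depth-corrected ratios of 6.43 (exact counting interval 1.97 to 33.2) and 16.1 (5.22 to 80.9). At 0.3 nM plt2 held 13 counts, against 19 in gPLT2 and 33 in gPLT2C212S. Under mock plt2 held 7, against 5 and 7. Only the comparison of 5 with 0.3 nM in gPLT2C212S kept CLE44 after the filter on low counts (0.71, SE 0.48, adjusted p = 0.376). Without that filter the 5 nM differences from plt2 had adjusted p = 0.0217 for gPLT2 and 4.94e-06 for gPLT2C212S (edgeR). At 0.3 nM they did not pass (0.30, adjusted p = 0.835, and 0.96, adjusted p = 0.308). Fits without the filter gave far smaller adjusted p for like sizes, as for CLE5 in gPLT2 from mock to 0.3 nM (2.15e-109 against 1.82e-11, edgeR). Their p-values are therefore not on the scale of the main test, here and for CLE7, CLE4 and CLE1 below. Counts of CLE44 may include reads of the overlapping gene.

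CLE7, the next gene before CLE5 on chromosome 2, had 0, 1 and 6 counts in plt2 from mock to 5 nM, and 28 and 41 counts in gPLT2 and gPLT2C212S at 0.3 nM. The 5 gPLT2 libraries held 7, 8, 4, 3 and 6 counts and the 5 gPLT2C212S libraries held 6, 11, 12, 8 and 4. Under mock each of these lines held 1 count over its 5 libraries. The ratio to mock was 26.0 in gPLT2 (exact counting interval 4.30 to 1064) and 33.9 in gPLT2C212S (5.75 to 1371). No comparison kept CLE7 after the filter. Without it, the rise from mock to 0.3 nM had adjusted p = 0.00198 in gPLT2 and 5.2e-05 in gPLT2C212S, and the difference from plt2 at 0.3 nM had adjusted p = 0.00246 and 5.56e-05 (edgeR). These unfiltered p-values are not on the scale of the main test. At 5 nM the differences from plt2 did not pass (0.96, SE 0.84, adjusted p = 0.437 for gPLT2, and 1.82, SE 0.75, adjusted p = 0.0607 for gPLT2C212S).

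CLE4, the first gene of the cluster, held 0 counts in plt2 at 0.3 nM and in gPLT2C212S under mock, and 13 counts in gPLT2C212S at 0.3 nM, 2 or 3 in every library. That was at least 3.58-fold higher than mock and at least 3.34-fold higher than plt2, taking 3 counts over the group as the limit for 0. Without the filter both differences passed (adjusted p = 0.0132 and 0.0122, edgeR), while in gPLT2 CLE4 held 6 counts under mock and 8 at 0.3 nM. CLE1 was low throughout, with a highest group mean of 0.931 ± 0.404 CPM in gPLT2 under mock (SD, n = 5). The unfiltered test, whose p-values are not on the scale of the main test, called it in 1 comparison, gPLT2C212S over plt2 at 5 nM (9 counts against 0, at least 2.91-fold higher, adjusted p = 0.017). Of those 9 counts 5 lay in 1 library, and 3 of the 6 libraries held 0. That fit called 7623 of 32226 genes in either direction. CLE3 had 2 counts in all 47 libraries, both in gPLT2 at 5 nM. CLE40 had 7 counts in 6 libraries, so no difference in either gene was detectable at this depth.

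**Figure D2:**
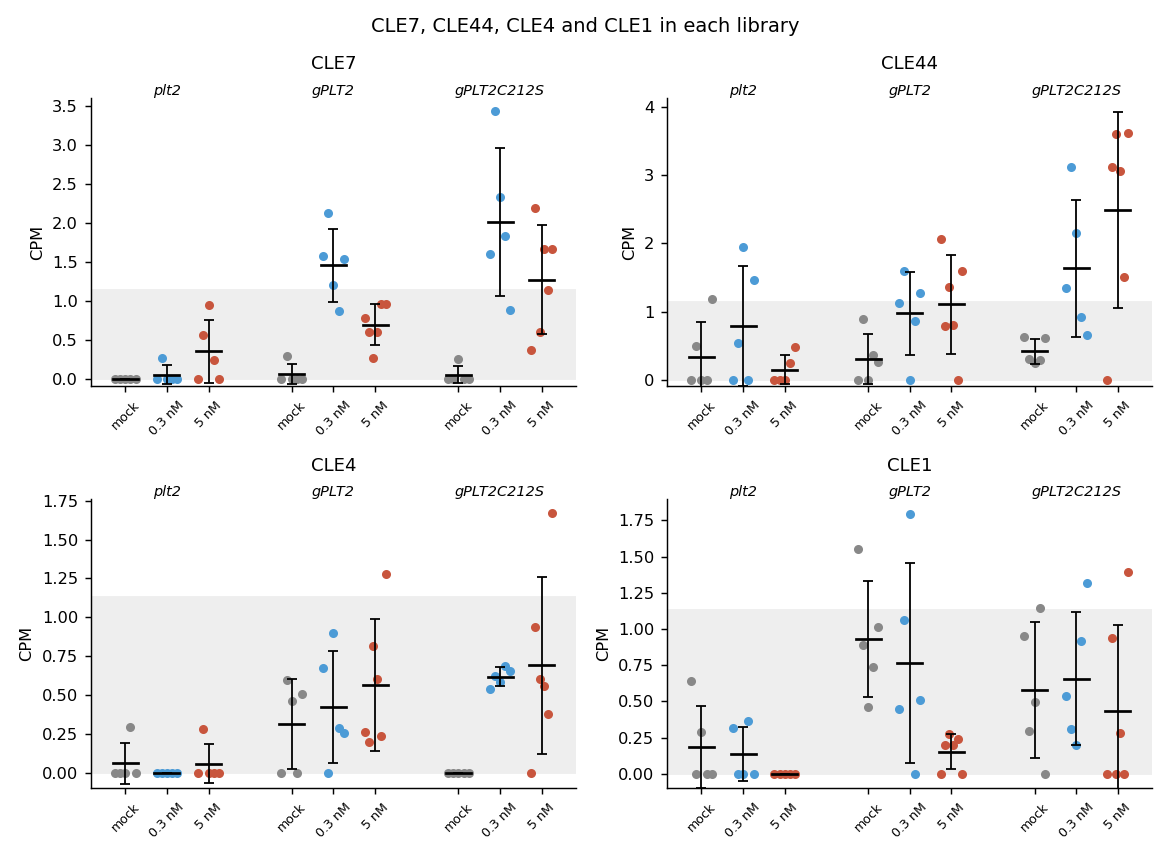
CPM of CLE7, CLE44, CLE4 and CLE1 in each library (points), with the group mean (bar) and SD (whisker). The grey band ends at 1.13 CPM, the level of 3 counts in the shallowest library, and CLE7 passes it in libraries of both transgenic lines at 0.3 nM and of gPLT2C212S at 5 nM, and in none of the other groups.

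Counts of members called are set beside the share of all tested genes called in the same direction. Of 10 members, 4 passed the filter when the transgenic lines were compared with plt2 at 0.3 nM, and all 4 were higher, where 14.3% of tested genes were higher in gPLT2 and 22.2% in gPLT2C212S. Of those 4, CLE2, CLE5 and CLE41 passed the filter through the transgenic libraries, while CLE6 held 20 to 31 counts in each plt2 library. Their count therefore does not stand for the family. From mock to 0.3 nM, 3 of 4 were higher in gPLT2 (6.14% of genes) and 4 of 4 in gPLT2C212S (11.9%). CLE5 passed the filter there through the 0.3 nM libraries, with 1 to 5 counts a mock library in gPLT2 and 1 to 7 in gPLT2C212S. So did CLE2 in gPLT2C212S, with 3 to 6 counts a mock library, and these counts of members do not stand for the family either. From 0.3 to 5 nM, 2 of 4 were lower in gPLT2 (12.6%) and 2 of 5 in gPLT2C212S (6.42%).

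At 5 nM against plt2, 3 of 3 members were higher in gPLT2 (17.8% of genes) and 2 of 3 in gPLT2C212S (21.8%). CLE5 and CLE41, which comparisons within plt2 did not keep, passed the filter there through the transgenic libraries. gPLT2C212S against gPLT2 had 1 of 4 lower at 5 nM (2.06%) and 0 of 4 at 0.3 nM, where 7.39% of genes were called in either direction, 1 member had an unadjusted p under 0.05 and DESeq2 called 0. Under mock, 1 of 2 members was higher in gPLT2C212S than in plt2 (6.83%), namely CLE41, which passed the filter through the transgenic libraries. The mock comparison of gPLT2 with plt2 called 0 of 2 (2.54% of genes in either direction), with 2 at an unadjusted p under 0.05 and 2 called by DESeq2. gPLT2C212S against gPLT2 under mock called 0 of 2 (8.77%), with 0 at an unadjusted p under 0.05 and 0 by DESeq2.

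The low-dose interaction called 2 of 4 for gPLT2 over plt2 (2.14% of genes higher) and 2 of 4 for gPLT2C212S over plt2 (4.84%). The members called, CLE2 and CLE5, passed the filter through the transgenic libraries at 0.3 nM. Between the transgenic lines the interaction called 0 of 4 (1.99% in either direction), with 0 at an unadjusted p under 0.05 and 0 by DESeq2. In plt2, 1 member passed the filter and 0 were called by edgeR at 0.3 nM (0.0504% of genes), at 5 nM (9.44%) or between the doses (18.9%), and in all 3 the count was 0 at an unadjusted p under 0.05 and by DESeq2.

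**Figure D3:**
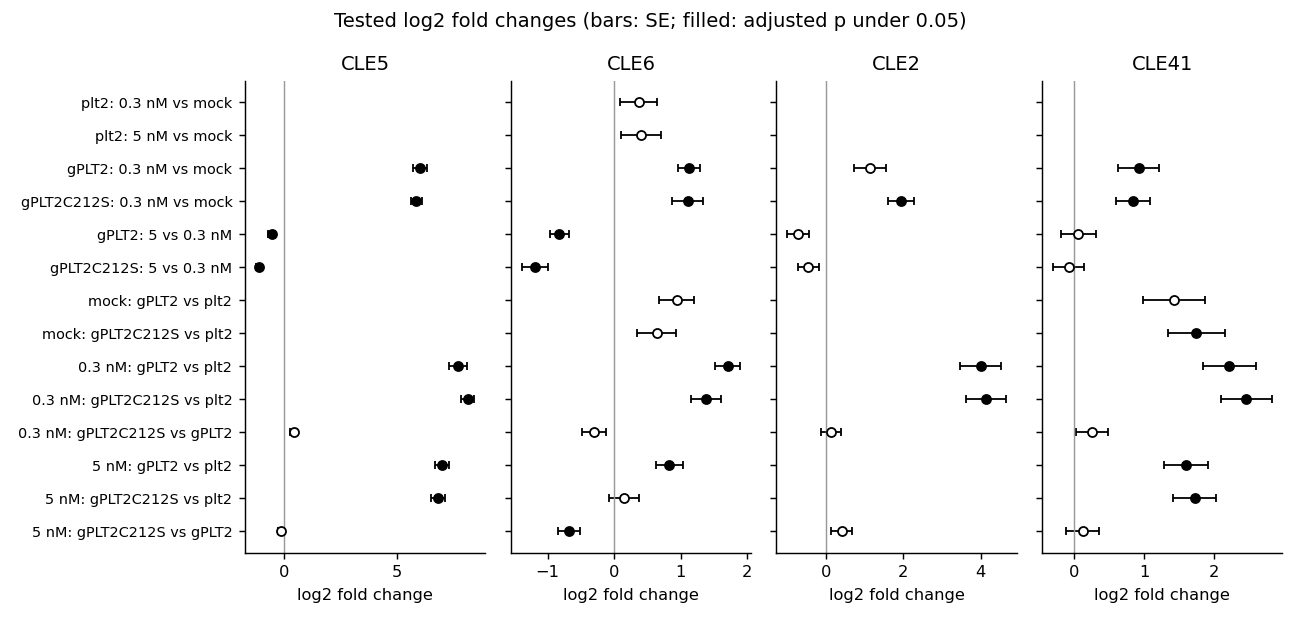
Log2 fold changes of the 4 members that most comparisons kept, with SE (bars), one row per comparison drawn. The step between the doses in plt2, gPLT2C212S against gPLT2 under mock, and the interactions were tested but are not drawn. Filled points have an edgeR adjusted p under 0.05, and missing points were removed by the filter on low counts. CLE5 lies near 6 in both low-dose rows of the transgenic lines, and its values against plt2 depend on 3 or 4 plt2 counts.

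The contrasts of 5 nM with mock in the transgenic lines, through which CLE5 was noticed, are given as values. Beside mock means of 0.734 and 1.07 CPM, CLE5 averaged 32.7 ± 4.58 CPM in the 6 gPLT2 libraries and 28.9 ± 3.72 CPM in the 6 gPLT2C212S libraries at the high dose, with fitted log2 differences of 5.48 (SE 0.27) and 4.72 (SE 0.26). For CLE6 they were 0.29 (SE 0.17) and -0.12 (SE 0.22), and for CLE41 0.97 (SE 0.28) and 0.73 (SE 0.26). For completeness, 2 of 4 members kept lay past the threshold in the higher direction in gPLT2 (23.2% of genes) and 2 of 3 in gPLT2C212S (18.7%). These counts include CLE5, which was chosen through these contrasts, and nothing is read from them.

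Per length, the leading CLE transcript of the set changed with treatment. In the deposited FPKM table, which lists 8 of the 10 members, CLE6 held 69.6% of their summed FPKM in plt2 under mock, 79.2% at 0.3 nM and 72.8% at 5 nM. It also led under mock in gPLT2 (64.9%) and gPLT2C212S (61.1%). At 0.3 nM CLE5 led, with 50.1% in gPLT2 and 59.0% in gPLT2C212S, and at 5 nM it held 51.8% in each. The summed FPKM was 12.8, 14.7 and 16.1 in plt2 from mock to 5 nM, 26.5, 111 and 72.9 in gPLT2, and 22.9, 125 and 65.3 in gPLT2C212S. CLE6, with the same peptide as CLE5, held a further 33.8% in gPLT2 and 23.8% in gPLT2C212S at 0.3 nM.

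**Figure D4:**
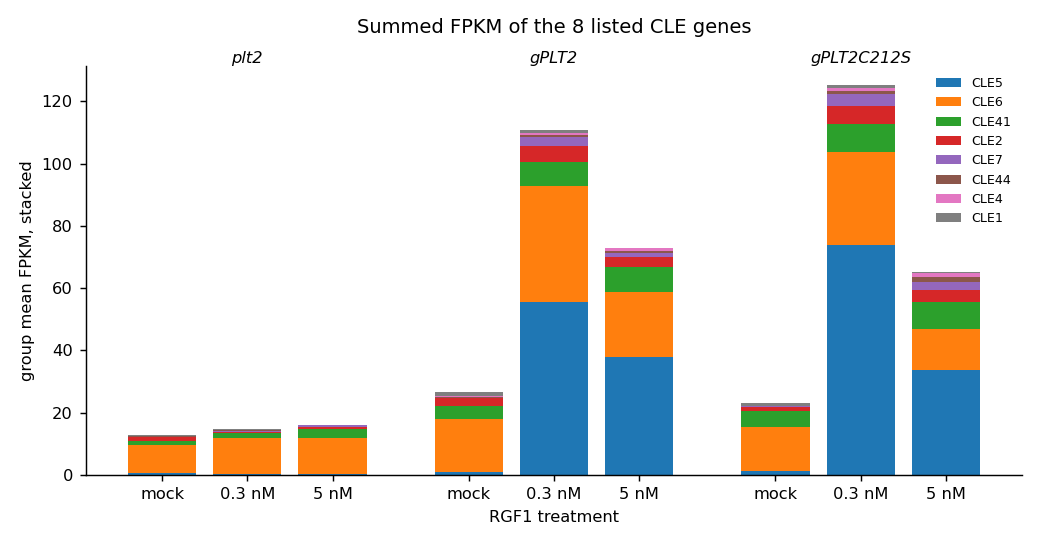
Group mean FPKM of the 8 listed CLE genes, stacked, by genotype and RGF1 treatment. The stack reaches 111 in gPLT2 and 125 in gPLT2C212S at 0.3 nM, mostly CLE5 and CLE6, and stays at or below 16.1 in plt2.

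Among receptors of CLE peptides, PXL1 and PXL2 were lower in the transgenic lines at 0.3 nM, and in gPLT2C212S also under mock. Of 23 genes listed as CLE receptors, co-receptors and downstream genes, 16 passed the filter at 0.3 nM against plt2, where 1 was higher and 3 lower in gPLT2, and 1 was higher and 5 lower in gPLT2C212S. Of all genes tested, 14.3% were higher and 17% lower in gPLT2, and 22.2% and 24.2% in gPLT2C212S. The median log2 difference of the list was -0.26 in both, beside 0.01 and 0.02 over all genes. PXL1 and PXL2, receptor kinases related to PXY, were lower in both, with log2 differences for PXL1 of -1.53 (SE 0.20, adjusted p = 5.32e-06) and -2.83 (SE 0.20, adjusted p = 4.79e-10), and for PXL2 of -0.81 (SE 0.14, adjusted p = 0.000148) and -1.95 (SE 0.13, adjusted p = 2.11e-10, edgeR). Under mock, gPLT2C212S already differed from plt2 by -1.93 for PXL1 (SE 0.23, adjusted p = 2.19e-05) and -0.75 for PXL2 (SE 0.12, adjusted p = 0.000311), while the gPLT2 differences were -0.49 (adjusted p = 0.137) and -0.38 (adjusted p = 0.106). CIK4, a co-receptor kinase, was higher by 0.62 (SE 0.21, adjusted p = 0.0263) and 0.91 (SE 0.17, adjusted p = 0.000199).

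PXL1 also fell in plt2 itself, from 43.8 ± 10.7 CPM under mock to 11.7 ± 3.43 CPM at 5 nM (SD, n = 5; log2 fold change -1.88, SE 0.21, adjusted p = 2.66e-05). In that comparison 4 of 17 listed genes were called, beside 9.44% of all genes: PXL1 and PXL2 (-0.49, SE 0.12, adjusted p = 0.0166) were lower, and the receptor kinases BAM1 (0.44, SE 0.13, adjusted p = 0.0331) and RPK2 (0.63, SE 0.18, adjusted p = 0.0383) were higher. From mock to 0.3 nM, 4 of 18 genes were called in gPLT2, all lower, as were 9.08% of all genes: PXL1, PXL2, the co-receptor CIK2 and MAKR5, a membrane-associated regulator. In gPLT2C212S 3 of 18 were called, all lower, as were 11.1% of all genes: PXL1, PXL2 and the phosphatase POL. From 0.3 to 5 nM, BAM1 rose in both transgenic lines, with 0.56 for gPLT2 (SE 0.12, adjusted p = 0.00203) and 0.41 for gPLT2C212S (SE 0.12, adjusted p = 0.0277), while PXL1 and PXL2 were lower in both.

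**Figure D5:**
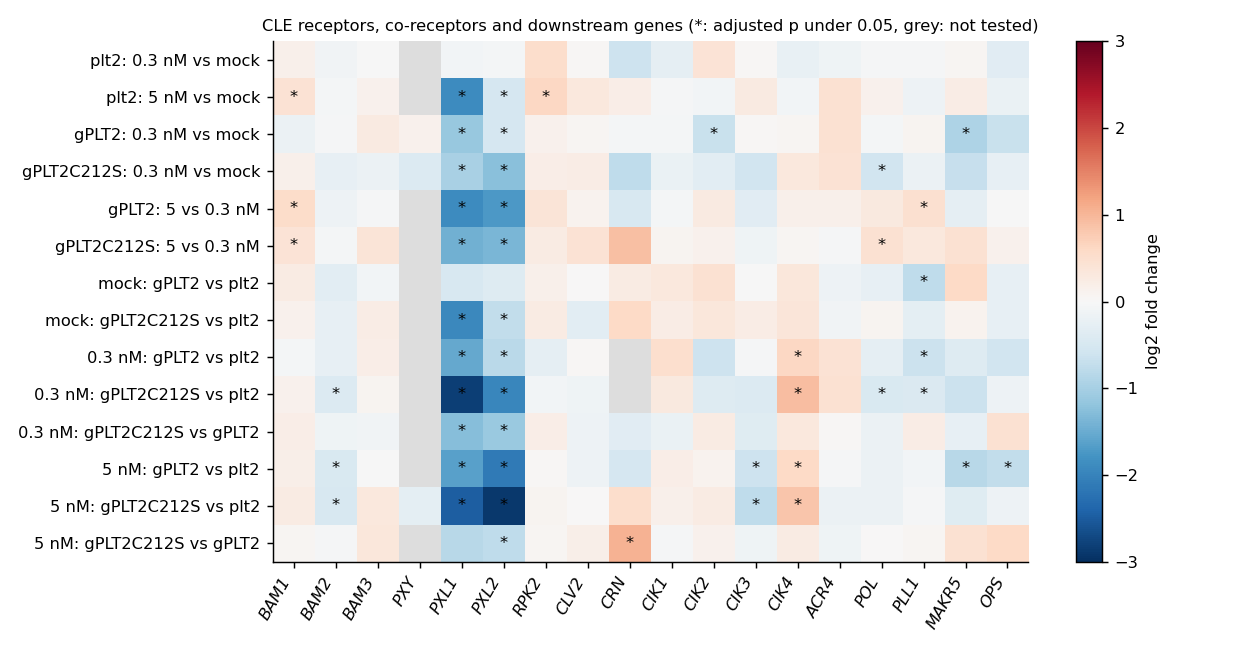
Log2 fold changes of CLE receptors, co-receptors and downstream genes (columns) in the tested comparisons (rows), on a colour scale from -3 to 3. Stars mark an edgeR adjusted p under 0.05, and grey cells were removed by the filter. PXL1 and PXL2 are lower, with stars, in both rows that compare the transgenic lines with plt2 at 0.3 nM.

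Among 21 other genes named CLE in RefSeq, 4 were kept at 0.3 nM against plt2, and CLE13 was the 1 called, in the opposite direction to CLE5, as 17% of all genes were in gPLT2 and 24.2% in gPLT2C212S. CLE13 averaged 12.3 ± 3.59 CPM in plt2, 5.56 ± 1.19 CPM in gPLT2 and 3.32 ± 1.30 CPM in gPLT2C212S (SD, n = 5 each), log2 differences of -1.15 (SE 0.25, adjusted p = 0.00108) and -1.96 (SE 0.29, adjusted p = 1.06e-05, edgeR). At 5 nM the difference from plt2 was -1.49 for gPLT2 (SE 0.30, adjusted p = 0.000418), and -1.84 for gPLT2C212S (SE 0.31, adjusted p = 2.29e-05), and CLE17 was higher in gPLT2C212S by 0.76 (SE 0.28, adjusted p = 0.0294).

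The genes that flank the cluster did not share the size of the CLE5 difference. EMB2785, on the CLE4 side, had differences from plt2 at 0.3 nM of 0.34 for gPLT2 (SE 0.13, adjusted p = 0.0575) and 0.59 for gPLT2C212S (SE 0.16, adjusted p = 0.00437). AT2G31130, on the CLE6 side, differed by -0.65 (SE 0.17, adjusted p = 0.00574) and -1.41 (SE 0.19, adjusted p = 3.71e-06). The other 2 neighbours kept in the fits, AT2G31040 and AT2G31090, had values of 0.41 (adjusted p = 0.13) and -0.38 (0.214) for gPLT2, and of 0.29 (0.187) and -0.74 (0.00869) for gPLT2C212S.

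Of 14368 genes with a mean of at least 5 CPM, those whose log2 CPM over the 47 libraries was most like CLE5 were AT3G11930 (Pearson r = 0.947), WRKY45 (0.933), AT4G16563 (0.931), AT2G25450 (0.923) and AT1G71695 (0.922). RefSeq annotates AT3G11930 as an adenine nucleotide alpha hydrolase-like protein, AT4G16563 as an aspartyl protease, AT2G25450 as an oxoglutarate-dependent oxygenase and AT1G71695 as a peroxidase. AT3G11930 averaged 4.85 ± 0.744 CPM in plt2 at 0.3 nM, 38.4 ± 4.04 CPM in gPLT2 and 50.9 ± 6.62 CPM in gPLT2C212S (SD, n = 5 each). Among members, CLE5 had r = 0.80 with CLE2 and with CLE41, 0.67 with CLE6 and 0.59 with CLE44, and CLE6 had 0.33 with CLE44. These values describe libraries that share groups and depth.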

How the data were processed

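RNA-seq libraries of 47 samples in 9 groups were analysed from 2 deposited tables. Read counts per locus for 36823 loci are raw counts as the authors deposited them, and FPKM values (scaled by transcript length and depth) for 25722 loci are the authors' own, per the file headers. The submitters' processing notes name HISAT2 2.1.0, featureCounts, Subread 2.0.3, DESeq 1.34.0 and TAIR10, without their roles. Members and lists were chosen with earlier results of these data known. Counts were tested with edgeR 4.0.16 in R 4.3.3 (filterByExpr with a minimum count of 10, TMM scaling, quasi-likelihood F test, Benjamini-Hochberg adjustment over all genes kept), using only the groups compared, in 21 comparisons, and a gene was called at an adjusted p under 0.05. CPM levels leave out 14 ribosomal RNA and organelle loci. Levels of different genes were compared in FPKM only. Ratios against 1 to 3 counts carry exact 95% intervals, and intervals and the limit of 3 counts cover counting error only. Genes named were the members, listed genes that were called, the nearest neighbours of the cluster, and the genes most correlated with CLE5 among those averaging at least 5 CPM. Alternatives were DESeq2 1.42.0, total count scaling, no low-count filter, a single fit of 9 groups, a replicate block, leaving out each library and, chosen after seeing the data, the mitochondrial share as a covariate. Adjusted p-values from fits without the low-count filter were far smaller at like sizes and are not comparable with those of the main test. The scripts were tested on simulated data, with 200 genes changed by 1 on the log2 scale. The test of gPLT2 against plt2 at 0.3 nM recovered 134 of them with 8 false calls. The interaction test of gPLT2 with plt2 recovered 32 with 1 false call. An interaction of that size that did not pass therefore does not show that the lines changed alike. Sequences came from RefSeq TAIR10.1.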

Additional observations from a re-analysis of the deposited data

Results flagged for a closer look

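Of 50 gene and group pairs with a library above 3 counts, 2 had 1 library far from the others, where chance gives about 1 in 20. CLE6 was 20.9 CPM in gPLT2 5 nM replicate 1, with the nearest library at 15.5 CPM. CLE6 was 34.9 CPM in gPLT2C212S 0.3 nM replicate 3, with the nearest at 19.9 CPM. Differences of the low-dose change between lines also stood out in the interaction test (edgeR). For CLE5 the fitted differences from plt2 were 7.31 in gPLT2 and 7.13 in gPLT2C212S on the log2 scale, values that rest on few plt2 counts and give no bound. They also use the transgenic mock libraries of the contrasts through which CLE5 was noticed. For CLE2 they were 3.15 in gPLT2 and 3.94 in gPLT2C212S.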

How the results depend on the processing

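The count of members called in a comparison moved under some alternatives. Without the low-count filter it was 5 for gPLT2 0.3 nM against mock (3 in the main test), 4 for gPLT2 and 6 for gPLT2C212S at 5 nM against mock (2 each, given as description only since CLE5 was chosen there), 1 for gPLT2 against plt2 under mock (0), 1 for gPLT2C212S against gPLT2 at 0.3 nM (0), and 5 for gPLT2 and 6 for gPLT2C212S against plt2 at 5 nM (3 and 2). In the single fit of 9 groups it was 4 for gPLT2C212S 5 nM against mock (2), 2 for gPLT2 against plt2 under mock (0), 5 and 4 against plt2 at 5 nM (3 and 2), and 0 between the transgenic lines at 5 nM (1). DESeq2 gave 2 for gPLT2 against plt2 under mock (0). Total count scaling gave 1 for gPLT2 5 against 0.3 nM (2) and 1 for gPLT2C212S 5 nM against mock (2). With the mitochondrial share, chosen after seeing the data, it was 1 for gPLT2C212S at 5 nM against mock and against 0.3 nM (2 each), 0 for gPLT2C212S against plt2 under mock (1) and 0 between the transgenic lines at 5 nM (1). Leaving out 1 library gave 0 to 1 between the transgenic lines at 0.3 and at 5 nM, 1 to 3 for gPLT2 5 against 0.3 nM and gPLT2C212S 5 nM against mock, 1 to 2 for the interaction of gPLT2 with plt2, and 0 to 1 for gPLT2 against plt2 under mock. Without the filter, 2689 of 32005 genes were called in either direction for gPLT2 0.3 nM against mock. For gPLT2 against plt2 under mock 911 of 32249 were, and between the transgenic lines at 0.3 nM 1531 of 32334. Against plt2 at 5 nM 6696 of 32381 were called for gPLT2 and 7623 of 32226 for gPLT2C212S. Total count scaling called 1743 genes for gPLT2 5 against 0.3 nM (3752 in the main test). Nothing is read from the member counts, and the cause of their changes was not tested.

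Replicate numbers did not pair the samples: deviations of same-numbered libraries correlated at -0.439 to 0.329, and at most 3 of 5 libraries correlated best with their own number. With the replicate block, members called were 1 between the transgenic lines at 0.3 nM (CLE5, adjusted p = 0.0498) and 0 at 5 nM (CLE6, 0.0747), and CLE41 in gPLT2 at 0.3 nM had 0.0714. With the block, the log2 fold change of CLE41 in gPLT2C212S from 0.3 to 5 nM was 0.0289 (adjusted p = 0.957).

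Values that changed sign were not called in the main test. With total counts CLE6 was -0.12 for gPLT2C212S against plt2 at 5 nM, CLE41 was -0.23 between the transgenic lines at 5 nM, and the interaction between these lines was 0.0435 for CLE5, 0.19 for CLE6 and 0.10 for CLE41, which was 0.19 with the mitochondrial share. Leaving out 1 library gave CLE6 -0.15 to 0.18 in plt2 between the doses, CLE41 -0.0719 to 0.18 in gPLT2 and -0.20 to 0.0474 in gPLT2C212S between the doses, and between the lines' low-dose changes -0.68 to 0.25 for CLE5, -0.26 to 0.14 for CLE6 and -0.22 to 0.10 for CLE41. CLE6 was -0.000493 to 0.34 for gPLT2C212S against plt2 at 5 nM. Total count scaling shifted the median of all genes by -0.42 to 0.53 on the log2 scale, and the share of calls that were higher at 0.3 nM against plt2 went from 45.7% to 66.6% in gPLT2 and from 47.8% to 76.9% in gPLT2C212S.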
